A study of Mus musculus with 6 samples.

Results

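The genes described here are 10 transcription factors of limb and craniofacial mesenchyme, Prrx1, Prrx2, Twist1, Twist2, Osr1, Osr2, Msx1, Msx2, Shox2 and Alx4, out of 20659 genes named on the array. Every gene probe whose accession maps to one of these symbols was taken. This gave 11 of 39429 probes, with 2 probes for Prrx1 and 1 for each of the other 9 genes. The group was selected on measured array levels, chosen by the lower levels of Prrx1, Twist1 and Osr1 in homozygous than in wild-type embryos. Differences of the members in that comparison, and in homozygous against heterozygous embryos, which uses the same homozygous arrays, are therefore given as a description, with no test.

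RNA came from whole mouse embryos at day 12 that were homozygous mutant, heterozygous mutant or wild type for the allele STAT3-K177K180R, 2 embryos each. STAT3 is a transcription factor activated by cytokines, and the allele name gives arginine in place of lysine at 2 residues. Embryos of the different genotypes shared a womb per the labels, which do not say which litter each embryo belongs to, attach the word mutant and the allele name to the wild-type embryos too, and in the extraction text speak of tumor tissue. One Cy3-labelled Agilent mouse array was used per embryo, so the p-values measure only the spread between these samples, and the number of arrays limits the precision.

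In the limb buds and the face, loose mesenchyme from lateral plate mesoderm and cranial neural crest gives rise to bone, cartilage, tendon and dermis. Homeobox factors (Prrx1, Prrx2, Msx1, Msx2, Shox2, Alx4), basic helix-loop-helix factors (Twist1, Twist2) and odd-skipped zinc finger factors (Osr1, Osr2) mark overlapping parts of this tissue. They control its growth and patterning, and closely related members of a family often stand in for each other.

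The arrays of both homozygous embryos were on 1 slide and the other 4 arrays on another, so an effect of the slide and one of the homozygous genotype cannot be told apart. Negative control spots had a median signal of 43.5 and 48 on the homozygous arrays, 27 and 26 on the heterozygous arrays, and 26 on both wild-type arrays. Between 70.7% and 77.3% of probes were well above background on each array. Stat3 read 1.39 and 1.09 in homozygous, 1.07 and 0.82 in heterozygous, and 0.81 in both wild-type embryos at 1 of its probes (normalized log2), and no comparison with wild type passed in limma's test (adjusted p = 0.0925 for homozygous embryos). The substituted residues leave the transcript in place, so this is no check of the genotype labels. Of 59 probes for markers of neural, erythroid, hepatic, muscle, endothelial, epithelial and macrophage cells, 58 passed the filter for signal above background, and the probe that did not was 1 of the Pax6 probes.

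All 11 member probes were well above background on all 6 arrays, so none entered through a single genotype. Levels are given as log2 of the array's processed signal relative to the 75th percentile of the same array (normalized log2 level). A level of 0 is the signal at that percentile. Levels of different probes cannot be set against each other.

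Prrx1, a paired-related homeobox factor of limb bud and craniofacial mesenchyme, differed between its probes. The probe designed to transcript NM_175686 had a normalized log2 level of 0.01 and 0.39 in homozygous embryos, 1.64 and 1.94 in heterozygous embryos, and 1.87 and 1.96 in wild-type embryos. Both homozygous embryos lay below all other embryos, while the heterozygous and wild-type values overlapped. The difference was −1.72 ± 0.18 (log2, homozygous minus wild type, SE, n = 2 per genotype), or 30.5% of the wild-type signal, and −1.59 ± 0.18 for homozygous minus heterozygous.

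The other Prrx1 probe, designed to transcript NM_001025570, read 0.35 and 0.73 (normalized log2 level) in homozygous embryos, 0.54 and 0.47 in heterozygous embryos, and 0.62 and 0.58 in wild-type embryos. Here the homozygous values lay on both sides of the others. The difference was −0.06 ± 0.16 for homozygous minus wild type and 0.04 ± 0.16 for homozygous minus heterozygous. Both accessions belong to Prrx1 in the RefSeq table, and the position of each probe in its transcript is not given in the sources used here.

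Within each array, the log2 signal of the NM_175686 probe minus that of the NM_001025570 probe was −0.34 in both homozygous embryos. It was 1.11 and 1.47 in heterozygous embryos, and 1.25 and 1.38 in wild-type embryos. The homozygous embryos therefore had the same difference between probes, although replicate 2 read higher than replicate 1 at each. Such a shift shows unequal change of the probes and does not show which of them follows the Prrx1 transcript as a whole. In the homozygous minus wild type difference the probes were 1.65 apart. Among 4437 genes with at least 2 tested probes, the median gap was 0.43, and 226 genes (5.09%) had a gap at least as large. Prrx1 was chosen for its fall in this comparison, so nothing is read from its place among these genes. For heterozygous minus wild type the Prrx1 probes were 0.03 apart, against a median gap of 0.08.

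**Figure D1:**
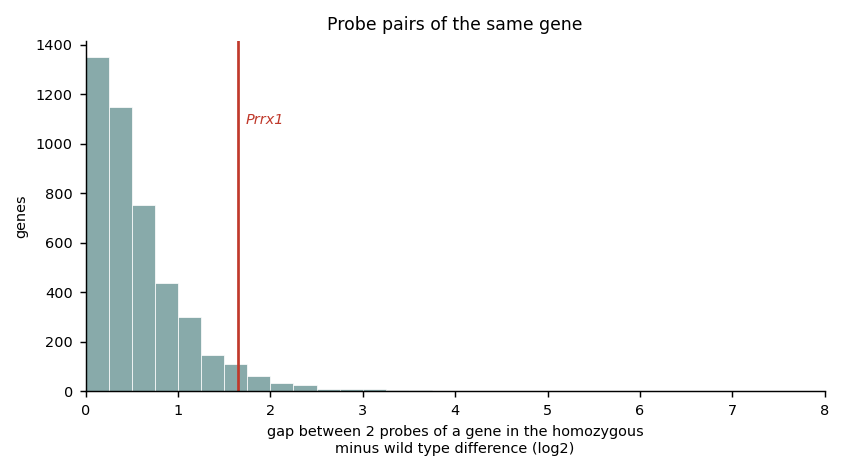
Number of genes (vertical axis) by the gap between 2 probes of the same gene in the homozygous minus wild type difference (horizontal axis, log2, bins of 0.25), for 4437 genes with at least 2 tested probes, taking the 2 with the highest mean. The red line marks Prrx1 at 1.65, to the right of most genes, with 226 genes at or beyond it. Prrx1 was chosen for its fall in this comparison, so its place is a description.

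Prrx2, the close relative of Prrx1 with which it acts jointly in limb and jaw, had normalized log2 levels of 0.52 and 0.35 in homozygous embryos, 1.19 and 0.78 in heterozygous embryos, and 1.07 and 0.55 in wild-type embryos. The homozygous values were the lowest, but the lower wild-type embryo lay only just above them. The differences were −0.38 ± 0.22 from wild type and −0.55 ± 0.22 from heterozygous embryos (log2, SE), with values of −0.64 to −0.12 from wild type when single arrays were left out.

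Twist1, which is needed in cranial mesoderm, neural crest and limb mesenchyme and whose loss of 1 copy in humans causes early fusion of skull sutures, had normalized log2 levels of 0.93 and 0.99 in homozygous embryos. It read 2.18 and 1.96 in heterozygous embryos and 2.33 and 2.06 in wild-type embryos. The homozygous embryos lay close together and below all others. The difference was −1.23 ± 0.15 (log2, SE) from wild type, which is 42.6% of the wild-type signal, and −1.11 ± 0.15 from heterozygous embryos.

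Twist2, also called Dermo1, a factor of dermis and other mesenchyme, read 1.18 and 1.26 (normalized log2 level) in homozygous embryos, 1.34 and 1.19 in heterozygous embryos, and 1.43 and 1.38 in wild-type embryos. The homozygous range overlapped the heterozygous range and lay just below the wild-type range. The differences were −0.18 ± 0.13 from wild type and −0.05 ± 0.13 from heterozygous embryos (log2, SE). The Twist2 probe thus showed no difference of the size seen at the Twist1 probe. The contrast within the family was not tested, because the comparison was used to choose the group.

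Osr1, an odd-skipped factor of intermediate mesoderm, lateral plate and connective tissue precursors, had the lowest difference of the 11 probes. Its normalized log2 level was −1.43 and −1.80 in homozygous embryos, 0.42 and 0.07 in heterozygous embryos, and 0.45 and 0.34 in wild-type embryos. Both homozygous embryos were well below the rest. The difference was −2.01 ± 0.19 (log2, SE) from wild type, or 24.8% of the wild-type signal, and −1.87 ± 0.19 from heterozygous embryos. Of 29910 probes tested, 490 had a lower homozygous minus wild type difference. Osr1 was chosen for its fall in this comparison, so the rank is a description and nothing is read from it.

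Osr2, its relative, which promotes growth of the secondary palate, read −2.42 and −2.40 (normalized log2 level) in homozygous embryos, −1.69 and −1.92 in heterozygous embryos, and −1.74 and −1.89 in wild-type embryos. The homozygous values nearly coincided and lay below all others. The difference was −0.60 ± 0.14 from both wild-type and heterozygous embryos (log2, SE).

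Shox2, a homeobox factor of the proximal limb skeleton, palate and sinoatrial node, read −3.77 in both homozygous embryos, −2.67 and −2.92 in heterozygous embryos, and −2.55 and −2.78 in wild-type embryos (normalized log2 level). Its homozygous values lay below all others. The difference was −1.11 ± 0.15 (log2, SE) from wild type and −0.98 ± 0.15 from heterozygous embryos. This was the dimmest member, with processed signals of 62.9 and 57.6 on the homozygous arrays, 186.6 and 166.8 on the heterozygous arrays, and 177.6 and 155.5 on the wild-type arrays. With normexp background correction the difference from wild type was −0.59, so its size rests on how background is removed.

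Msx1 and Msx2 are homeobox factors induced by bone morphogenetic proteins (BMPs), and Msx1 is needed in palate and teeth and Msx2 in the skull. Msx1 had normalized log2 levels of −1.49 and −0.50 in homozygous embryos, −1.12 and −1.29 in heterozygous embryos, and −0.69 and −1.03 in wild-type embryos. The homozygous embryos were the lowest and the highest of all 6, so the difference of −0.14 ± 0.32 from wild type carries no direction. It was 0.36 without homozygous replicate 1 and −0.63 without homozygous replicate 2.

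Msx2 read −0.92 and −0.45 (normalized log2 level) in homozygous embryos, −1.48 and −1.70 in heterozygous embryos, and −1.42 and −1.59 in wild-type embryos. The difference was 0.82 ± 0.19 (log2, SE) from wild type and 0.90 ± 0.19 from heterozygous embryos. Counted as a description, Msx2 was the only member probe whose higher homozygous level passed the threshold. Both homozygous embryos lay above all others.

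Alx4, a homeobox factor that restricts polarising activity in the anterior limb bud and acts in skull formation, read −2.37 and −2.47 in homozygous embryos, −2.55 and −2.85 in heterozygous embryos, and −2.63 and −2.87 in wild-type embryos (normalized log2 level). The homozygous embryos were the highest by a small margin. The difference was 0.33 ± 0.16 (log2, SE) from wild type and 0.28 ± 0.16 from heterozygous embryos.

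**Figure D2:**
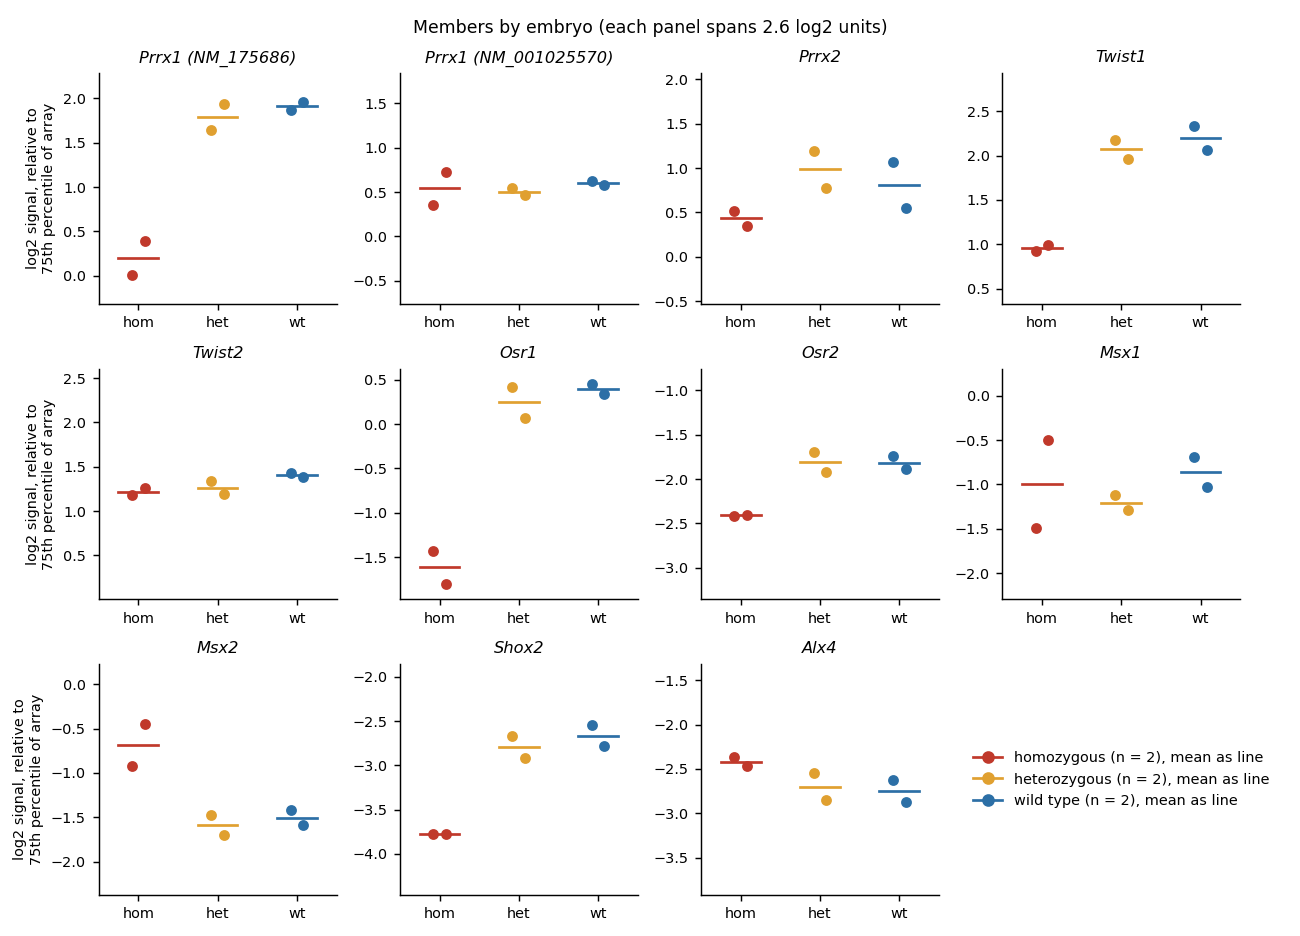
Normalized log2 level (vertical axis, log2 signal relative to the 75th percentile of the array) of each member probe in homozygous (hom), heterozygous (het) and wild-type (wt) embryos, with 1 point per embryo and a line at the mean of the 2 embryos. All panels span the same range, and the homozygous points stand below the other genotypes for Prrx1 NM_175686, Prrx2, Twist1, Osr1, Osr2 and Shox2 and above them for Msx2 and Alx4.

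Counted as a description, 5 of 11 member probes were lower and 1 was higher in homozygous than in wild-type embryos at an adjusted p below 0.05, against a background of 14.6% of all tested probes lower and 13.2% higher. The lower probes were those of Osr1, Prrx1 (NM_175686), Twist1, Shox2 and Osr2, and the higher one that of Msx2. Nothing is read from this share, since the group was picked for falls in the same comparison. Homozygous and wild-type arrays did not overlap for 7 lower and 2 higher member probes, with 30.5% and 38.4% of all probes as background. The median of the member differences was −0.38, against 0.08 for all probes. In a whole embryo, fewer cells of a type and less RNA per cell cannot be told apart.

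The comparison of homozygous with heterozygous embryos shares its homozygous arrays with the one above. There too 5 of 11 member probes were lower and 1 higher, with 13.1% and 9.56% of all probes as background (22.7% in either direction). Homozygous and heterozygous arrays did not overlap for 6 lower and 2 higher member probes, against 28.5% and 34.4% of all probes. The median was −0.55, against 0.07 for all probes. When either wild-type array was left out, the calls of Osr2 and Msx2 between homozygous and wild-type embryos were lost. The homozygous minus wild type differences of Osr1, Prrx1 (NM_175686), Twist1 and Shox2 stayed below 0 in all 15 alternatives tried. Those of Osr2, Prrx2 and Twist2 did so too. Every alternative reuses the arrays by which the group was chosen, so this describes the processing and lends the falls no support. The homozygous minus wild type difference over these alternatives was −2.20 to −1.83 for Osr1, −1.91 to −1.52 for Prrx1 (NM_175686), −1.37 to −1.10 for Twist1 and −1.22 to −0.59 for Shox2.

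**Figure D3:**
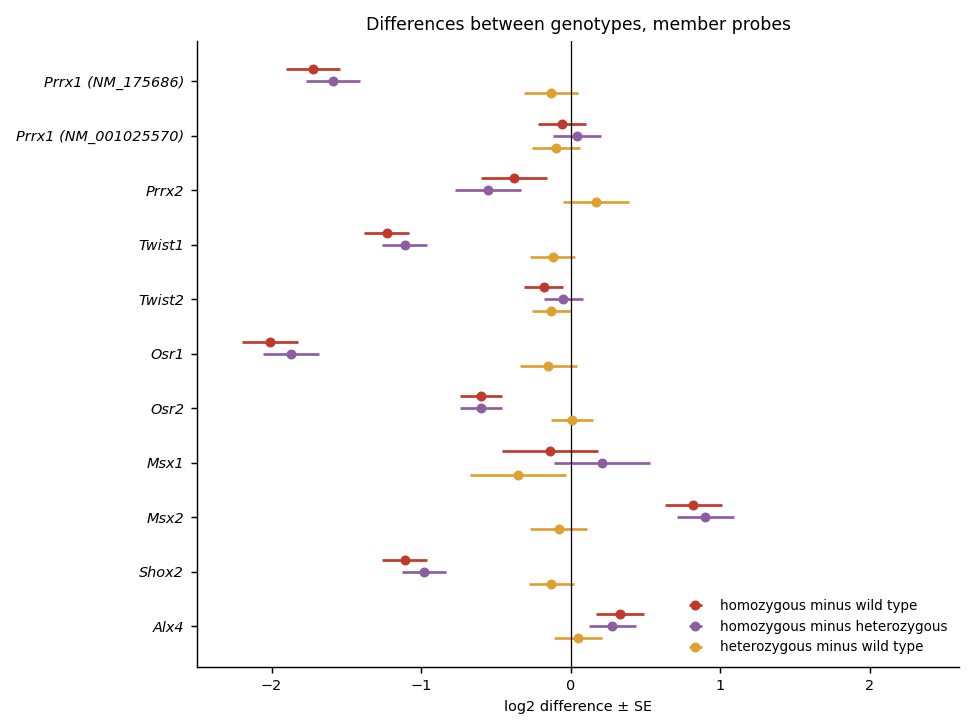
Log2 differences (horizontal axis) of the 11 member probes (rows) for homozygous minus wild type, homozygous minus heterozygous and heterozygous minus wild type, with SE as bars from limma's fit of all 6 arrays. The comparisons with homozygous embryos lie side by side for each probe, and the heterozygous minus wild type values stay between −0.35 and 0.17.

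**Figure D4:**
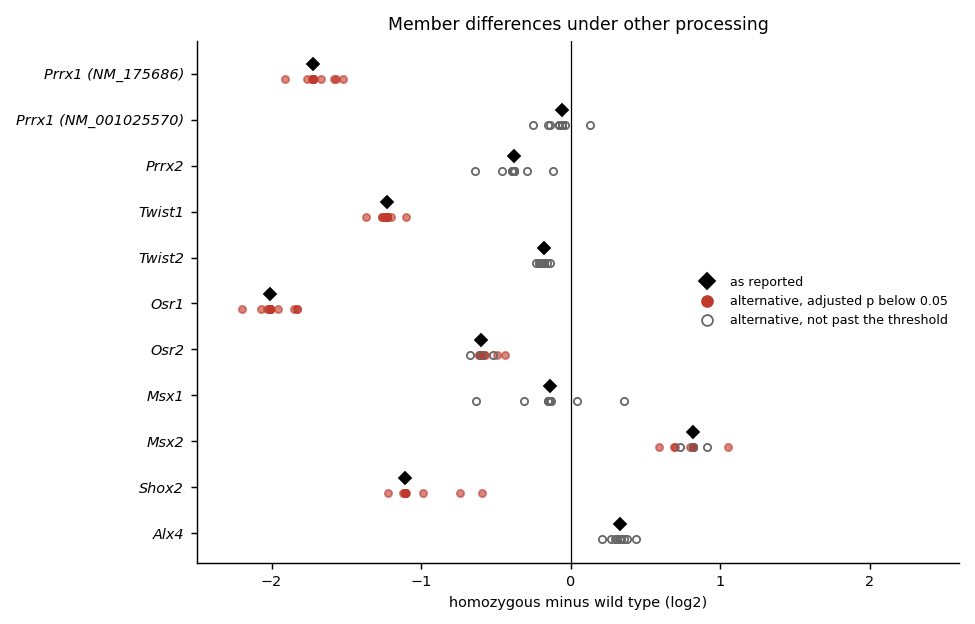
Homozygous minus wild type difference (horizontal axis, log2) of each member probe (rows) as reported (diamond) and under each alternative (circles, filled where the adjusted p is below 0.05). Osr1, Prrx1 NM_175686, Twist1, Shox2, Osr2, Prrx2 and Twist2 stay below 0 throughout, and the values of Msx1 and of the other Prrx1 probe span 0. The group was chosen for falls in this comparison, so the filled circles are a description.

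The heterozygous embryos were not used to choose the genes, although the wild-type embryos they are set against were. None of the 11 member probes differed between heterozygous and wild-type embryos in limma's test (every adjusted p = 1). The smallest unadjusted p was 0.322, for Msx1, and none was below 0.05. Over all 29910 probes, 0% were called and 2.09% had an unadjusted p below 0.05. Heterozygous and wild-type arrays did not overlap for 3 lower and 0 higher member probes, against 11.9% and 14.6% of all probes. Both genotypes lay on the same slide.

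The heterozygous minus wild type difference was −0.13 for Prrx1 (NM_175686), with a 95% interval of −0.56 to 0.31. For Twist1 it was −0.12 (−0.50 to 0.25), for Osr1 −0.15 (−0.60 to 0.31) and for Shox2 −0.13 (−0.50 to 0.24). Msx2 differed by −0.08 (−0.55 to 0.38) and Osr2 by 0.01 (−0.34 to 0.35). The interval for Msx1 was the widest, −0.35 (−1.12 to 0.43), and it leaves room for changes of more than 2-fold lower. Prrx2 (0.17), Twist2 (−0.13), Alx4 (0.05) and the second Prrx1 probe (−0.10) completed the group. Of the 11 differences, 8 were below 0.

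Upstream sequences of members that were lower in homozygous embryos are shown beside that of Twist2, whose difference was small, and of Msx2, which was higher. The RefSeq promoter table for the GRCm38.p6 build holds 7 of the 10 genes and was read for the 250 bases before the annotated start. It lacks Osr1, Osr2 and Alx4. Osr1 and Osr2, both lower in homozygous embryos, therefore have no sequence here. Searched on both strands were the palindromic STAT motif TTCNNNGAA, the E-box CANNTG bound by Twist and other helix-loop-helix factors, the homeodomain core TAATTA and the CCAAT box. Capitals mark every match, and no matches overlapped each other.
Prrx1, chr1:163313651-163313900, minus strand: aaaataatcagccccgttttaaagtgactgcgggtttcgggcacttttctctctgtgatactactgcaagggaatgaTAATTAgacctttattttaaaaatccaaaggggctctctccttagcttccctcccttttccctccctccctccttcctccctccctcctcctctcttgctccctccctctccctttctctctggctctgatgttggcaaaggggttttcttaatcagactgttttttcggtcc
Twist1, chr12:33957421-33957670, plus strand: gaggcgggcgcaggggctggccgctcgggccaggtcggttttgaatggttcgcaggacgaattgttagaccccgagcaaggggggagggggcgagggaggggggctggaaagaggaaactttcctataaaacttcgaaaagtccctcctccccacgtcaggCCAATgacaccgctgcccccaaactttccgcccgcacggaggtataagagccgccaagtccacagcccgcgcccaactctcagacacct
Shox2, chr3:66981772-66982021, minus strand: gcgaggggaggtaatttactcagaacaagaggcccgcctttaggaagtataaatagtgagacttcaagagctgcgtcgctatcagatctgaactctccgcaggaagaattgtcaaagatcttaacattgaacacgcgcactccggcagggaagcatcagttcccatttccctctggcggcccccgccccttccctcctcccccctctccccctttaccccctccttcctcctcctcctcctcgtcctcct
Twist2, chr1:91801211-91801460, plus strand: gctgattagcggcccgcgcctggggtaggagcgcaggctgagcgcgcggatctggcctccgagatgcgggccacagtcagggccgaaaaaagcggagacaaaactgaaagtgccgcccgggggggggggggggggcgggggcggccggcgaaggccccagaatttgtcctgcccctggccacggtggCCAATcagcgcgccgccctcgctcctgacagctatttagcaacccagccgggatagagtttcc
Msx2, chr13:53472781-53473030, minus strand: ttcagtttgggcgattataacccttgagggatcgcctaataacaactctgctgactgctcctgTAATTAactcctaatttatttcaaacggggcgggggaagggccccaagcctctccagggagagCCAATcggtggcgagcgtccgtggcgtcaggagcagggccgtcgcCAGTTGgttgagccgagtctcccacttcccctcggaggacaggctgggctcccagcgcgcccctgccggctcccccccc

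None of the 7 member sequences holds TTCNNNGAA, which is present in 7.02% of all 32851 promoter sequences of this length. The homeodomain core TAATTA lies 173 bases before the start of Prrx1 and 187 bases before that of Msx2, and is found in 4.84% of all promoters. An E-box lies 79 bases before the start of Msx2, and 1 more was found in Msx1, while 66.2% of all promoters hold one. CCAAT is held by 4 of the 7 sequences and by 33.8% of all promoters. It lies 89 bases before the start of Twist1, 63 before that of Twist2 and 124 before that of Msx2, and Msx1 holds 2 matches, the farther 91 bases before its start. The Shox2 window holds none of the motifs. A match is no evidence of a site, and its absence says only that these letters are not in this window.

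Genes that act around the members were taken from 6 lists holding 105 genes, all of them measured, by 129 probes. Between homozygous and wild-type embryos 14 of these probes rose and 24 fell in limma's test, or 29.5% called, against 27.7% of all tested probes. Their median difference was 0.01, against 0.08 for all probes. None of the 129 passed between heterozygous and wild-type embryos.

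Limb bud patterning genes moved both ways. Of 35 probes for 27 genes, 5 rose and 7 fell in homozygous against wild-type embryos, with a median of 0.18. Wnt5a, a ligand that drives limb outgrowth, had normalized log2 levels of 1.55 and 2.25 in homozygous embryos, 0.34 and 0.25 in heterozygous embryos, and 0.22 and −0.12 in wild-type embryos, a rise of 1.85 ± 0.25 (limma, adjusted p = 0.00444). Irx5, an Iroquois homeobox factor of the early limb bud, read −1.70 and −1.80 in homozygous, −0.54 and −0.75 in heterozygous, and −0.58 and −0.62 in wild-type embryos, a difference of −1.15 ± 0.14 (adjusted p = 0.00295 in limma's test). Sp8, a factor of the limb ectoderm, fell by 1.29 at 1 probe but read 0.47 at another (adjusted p = 0.147). The falling Sp8 probe was dim, at −6.03 and −6.41 in homozygous embryos, and its difference was −0.01 with normexp background correction. Fgf8, the growth factor of the apical ridge, which was singled out after its values were seen, was called in opposite directions at its 2 tested probes (1.53 and −0.53). The falling Fgf8 probe was dim too, at −6.18 and −6.44 in homozygous embryos, and was well above background on 5 of the 6 arrays.

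Of 32 probes for 27 craniofacial mesenchyme transcription factors, 1 rose and 5 fell, with a median of 0.00. Lhx6, a LIM homeobox factor of the jaw and palate, had normalized log2 levels of −1.32 and −1.34 in homozygous embryos, 0.57 and 0.24 in heterozygous embryos, and 0.63 and 0.48 in wild-type embryos. It fell at both tested probes, at −1.88 ± 0.16 and −0.74 (limma, adjusted p = 0.00114 and 0.0259). Gsc, a homeobox factor of the lower jaw and ear, read −0.82 and −1.29 in homozygous, 0.69 and 0.43 in heterozygous, and 0.80 and 0.84 in wild-type embryos, a difference of −1.87 ± 0.19 (adjusted p = 0.00205 in limma's test). Barx1, which marks molar and jaw mesenchyme, was at −0.95 ± 0.21 (adjusted p = 0.0202).

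The BMP signalling genes, whose ligands induce Msx1 and Msx2, had 2 probes risen and 3 fallen of 17, with a median of −0.17. The extracellular BMP antagonist Chrd fell (−0.84 ± 0.14, adjusted p = 0.0083), as did the ligand Bmp7 (−0.80 ± 0.17, adjusted p = 0.0168) in limma's test. The receptor Bmpr1b fell at 1 probe (−0.68, adjusted p = 0.0176) and read −0.13 at the other. With normexp background correction the differences were −0.49 for Chrd and −0.37 for Bmpr1b. Among dimerisation partners and inhibitors of Twist factors, 1 of 10 probes rose and 2 fell. The partners Tcf12 and Tcf3, known as E proteins, were lower at 1 probe each (−1.41 ± 0.14 and −0.78 ± 0.13, limma, adjusted p = 0.00197 and 0.00902). Their other probes read 0.11 and 0.18, neither past the threshold. Id1, which binds E proteins and is itself induced by BMPs, was at 0.45 ± 0.13 (adjusted p = 0.044).

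Mesenchyme and connective tissue genes had 2 of 18 probes risen and 3 fallen, with a median of 0.02. Whether they follow the amount of limb and face mesenchyme in a whole embryo was not tested. Thy1, a surface protein of fibroblasts and other cells, was at −0.87 ± 0.15 (limma, adjusted p = 0.00932). The intermediate filament gene Vim was at −0.46 ± 0.12 (adjusted p = 0.0368) and the matrix proteoglycan gene Lum at 0.57 ± 0.13 (adjusted p = 0.0239). Cartilage, bone and tendon genes had 3 of 19 probes risen and 4 fallen, with a median of 0.06. Sox5, a partner of Sox9 in cartilage, fell at both probes (−0.86 and −1.18). The joint ligand Gdf5 fell at 1 probe (−0.95) and read −0.18 at the other, and the cartilage matrix gene Matn1 rose (1.00 ± 0.20, adjusted p = 0.0162 in limma's test).

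Of these 18 named genes of the lists, 6 kept their call when either wild-type array was left out, namely Irx5, Wnt5a, Sp8, Lhx6, Gsc and Tcf12. The other 12 lost it without wild type replicate 1 and without wild type replicate 2, with adjusted p-values in limma's test from 0.0614 (Barx1) to 0.253 (Id1). Id1 and Vim also lost their call with no filter on dim probes and with only the genotypes compared, and Id1 with the replicate block. Among the 7 named genes with more than 1 tested probe, all probes were called the same way in 2, Lhx6 and Sox5.

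**Figure D5:**
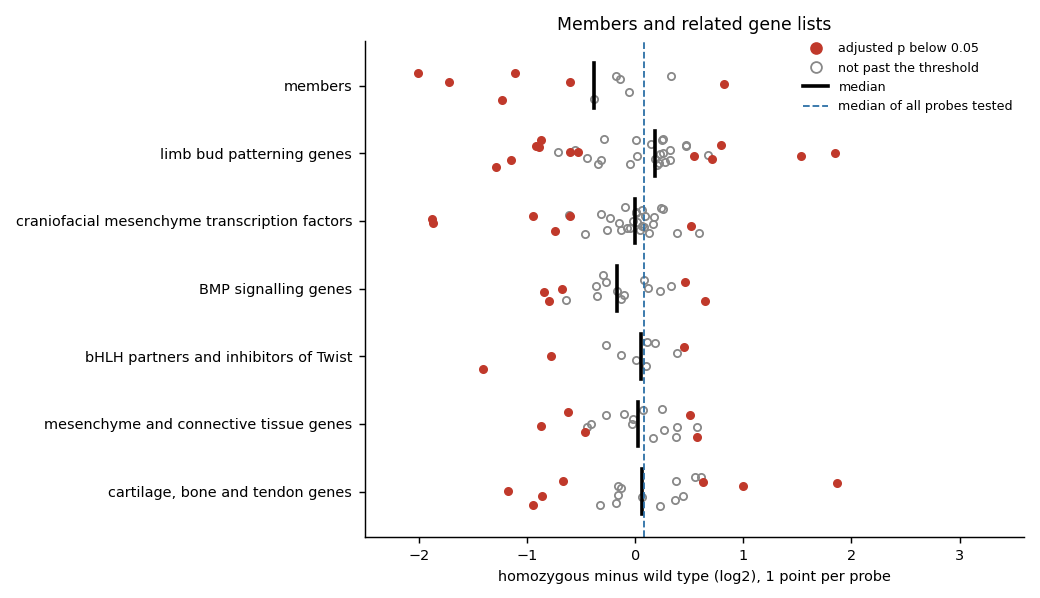
Homozygous minus wild type difference (horizontal axis, log2), 1 point per probe, for the 11 member probes and the 6 lists (rows), filled where the adjusted p is below 0.05, with each row's median as a black bar and the median of all tested probes (0.08) as a dashed line. The members were chosen for falls in this comparison, and the lists have points on both sides, with medians from −0.17 to 0.18.

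Markers of other cell types were set beside these values. The summed linear signal of the hepatocyte markers, relative to the 75th percentile, was 217 and 209 in homozygous embryos, 124 and 151 in heterozygous embryos, and 146 and 135 in wild-type embryos, and 4 of its 7 genes (Afp, Fgb, Apoa2 and Serpina1a) rose, of which Apoa2 and Serpina1a each had another probe not past the threshold (0.20 and 0.55). That of the skeletal muscle markers was 85.5 and 85.4 in homozygous embryos, 80.0 and 66.1 in heterozygous embryos, and 66.5 and 60.9 in wild-type embryos, where Myog rose and Myf5 fell. The erythroid sum was 170 and 136 in homozygous, 101 and 115 in heterozygous, and 145 and 124 in wild-type embryos, and none of its 7 genes was called. The epithelial sum was 16.6 and 20.5 in homozygous, 19.2 and 16.6 in heterozygous, and 16.5 and 15.9 in wild-type embryos, and 1 of 7 genes, Trp63, fell at 1 of its probes. The neural sum was 34.4 and 30.9 in homozygous, 30.1 and 26.8 in heterozygous, and 27.3 and 28.7 in wild-type embryos, with none of its 7 genes called. The macrophage sum was 10.3 and 9.12 in homozygous, 8.72 and 9.47 in heterozygous, and 8.27 and 8.44 in wild-type embryos. Of its 4 measured genes C1qa rose (0.54), and Csf1r fell at 1 probe (−0.62) but read 0.08 and 0.22 at its others. The endothelial sum was 11.8 and 11.1 in homozygous, 12.2 and 11.5 in heterozygous, and 11.5 and 11.7 in wild-type embryos. Of its 5 genes Kdr fell at 1 probe (−0.67) and read 0.15 at the other. Every marker gene had a probe well above background except 1 macrophage gene for which no probe was named. The part of these markers in the member differences was not tested.

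Among 187 tested probes of other genes on the lists and marker lists, those with the profile most like each of the 3 founding genes over the 6 arrays were found by the root mean square difference of centred log2 levels. Closest to Twist1 were Irx5 (0.089), Barx1 (0.15) and the dim Sp8 probe (0.162). Closest to Osr1 were Trp63 (0.079), Gsc (0.117) and Lhx6 (0.12), and closest to Prrx1 (NM_175686) were Tcf12 (0.233), Lhx6 (0.238) and Trp63 (0.298). Trp63, a factor of surface epithelium, was at −1.90 at that probe and at 0.33 at its other probe. All of these profiles share a low level in both homozygous arrays, which lay on a slide of their own. The 3 genes were chosen for that low level, so a search for like profiles returns such probes by construction. Nothing is read from the likeness.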

How the data were processed

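Intensity per spot, with quality flags, is what the deposited scanner output gives, made with Feature Extraction 11.0.1.1, per the file headers, and background-subtracted and detrended within each array and not normalized between arrays, with the array annotated to mm9. A table of log2 values from the authors has the same median in every array (6.72). Its sorted values in each array also lie within 0.07 of those of homozygous replicate 1, so the whole distributions nearly match. The method is not given in the sources used here. Genotype and replicate number came from the sample titles.

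Control spots (1377 of 44397) and outlier spots were left out, spots of a probe were averaged, and log2 of the processed intensity was taken relative to the array's 75th percentile over gene spots. No spot was saturated. Tested were the 29910 probes flagged well above background in both embryos of 1 genotype or more. RefSeq accessions (GRCm38.p6 table, names only) named 27234 probes (69.1%), and 12195 stayed unnamed. One model of genotype over all 6 arrays was fitted with limma 3.58.1 in R 4.3.3 (3 residual and 3.37 prior degrees of freedom). Every probe was tested, with Benjamini-Hochberg adjustment and a threshold of 0.05. The 95% intervals use the same fit. The model was also run on simulated data with independent noise, few changed probes and no slide effect. That run cannot speak to false calls that a slide effect would give. From each list the 3 genes with the smallest p that passed between homozygous and wild-type embryos were named, as were up to 2 for heterozygous embryos, where none passed. Fgf8 and the marker genes with values were chosen after their values were seen, and Trp63 also by its profile. The alternatives changed background correction (normexp on the median spot and background intensity, offset 50), normalization, probe filter, probes per gene, samples in the fit and a block for replicate number. The members and lists were chosen with earlier results of these data known.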

Additional observations from a re-analysis of the deposited data

How the results depend on the processing

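No member difference that passed the threshold as reported changed sign under the 15 alternatives. Every alternative reuses the arrays by which the group was chosen, so this lends the differences no support. The alternatives are not all distinct. Leaving out an array of the genotype outside a comparison gives the same fit as taking only the genotypes compared. Counted as a description, 6 of the 11 member probes were called between homozygous and wild-type embryos, against 8298 of all 29910 tested probes. With no filter on dim probes it was 4, where Osr2 and Msx2 no longer passed, against 6828 of 39429 probes. The calls of Osr2 and Msx2 were also lost when either wild-type array was left out. The median member difference from wild type was −0.38, and −0.49 with 1 probe per gene; with single arrays left out it was −0.64 to −0.16. For homozygous minus heterozygous it was −0.55, −0.42 with normexp and the 75th percentile, and −0.72 to −0.35 with arrays left out. There Osr2 lost its call with no filter on dim probes and with only the genotypes compared, and Msx2 lost its call in the latter. Both also lost it when either heterozygous array was left out. Shox2 lost its call without heterozygous replicate 1, where its difference was −0.85. The Msx1 difference was 0.70 without homozygous replicate 1. Over all probes, 8298 were called between homozygous and wild-type embryos and 2130 to 10781 with single arrays left out, the low values without wild type replicate 2 (2130) and replicate 1 (2453). Between homozygous and heterozygous embryos 6792 were called, 13791 with normexp and the 75th percentile, 3594 with only the genotypes compared, and 1933 to 9554 with arrays left out. Between heterozygous and wild-type embryos it was 0, and 0 to 7 with arrays left out. With normexp and that percentile, the all-probe median of homozygous minus wild type was 0.19 (0.08 as reported) and 67.2% of calls were higher (47.5% as reported), and of homozygous minus heterozygous calls 75.9% were higher (42.1% as reported, 31.1% with only the genotypes compared). Of 129 list probes 38 were called between homozygous and wild-type embryos, 23 with no filter on dim probes and 8 to 47 with arrays left out. The replicate block, which could only pair samples by their number, gave 8052 and 6544 calls in the homozygous comparisons and a member median of −0.38 and −0.55, and the deviations of same-numbered arrays correlated at −0.159 to 0.286, so the numbers were not taken as pairs. A slide block could not be fitted for homozygous embryos, and for heterozygous against wild type the slide is shared. The cause of these shifts was not tested.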
